A study of Rattus norvegicus with 2 samples.

Results

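Genes of fatty acid oxidation, ketone body formation and the nuclear receptor PPAR alpha were followed in rat liver after senecionine, a pyrrolizidine alkaloid that liver enzymes convert to reactive pyrroles. The set held 33 genes out of 13667 named genes with a usable probe. The 33 were chosen by symbol for their place in mitochondrial or peroxisomal oxidation, in ketone body metabolism or among known PPAR alpha targets. Earlier results of these data were known when the choice was made. Each was found through the RefSeq transcript accession of its probe, and 42 probes represented the 33 genes. The arrays were 2 one-colour (Cy3) Agilent oligonucleotide arrays, 1 for each group. The control group was Sprague Dawley rats given sodium chloride, and the treated group was Sprague Dawley rats given senecionine at 35 mg/kg (i.g. in the labels). Livers were collected 36 h after dosing in both groups, and 3 tissue samples per group were mixed into a pool, per the series' design text. Sex and age are not given in the sources used here. With 1 pool per group the spread within a group cannot be estimated, so no test was made and every difference below is a difference between 2 arrays.

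Fatty acids enter mitochondria as carnitine esters and are shortened there by a repeated cycle of dehydrogenation, hydration, a second dehydrogenation and thiolytic cleavage. Peroxisomes run a related cycle on very long chains, and in liver much of the resulting acetyl-CoA leaves as ketone bodies. PPAR alpha, a receptor activated by fatty acids, pairs with a retinoid X receptor and raises transcription of many of these enzymes during fasting.

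Of the 33 genes, 31 were well above background on both arrays, and the other 2, Pdk4 and Acot1, were so on the senecionine array only. That pattern was not particular to these genes. Across the 13667 named genes, 2620 reached this level after senecionine alone, while 169 did so in the control alone. The lowest signal with this call was 20.6 units in the control and 10.8 after senecionine. Of the 31, 16 were lower by 2-fold or more after senecionine, 3 were higher by that much and 12 lay within 2-fold. The same threshold was passed downward by 17.7% and upward by 11.2% of all 7803 genes measured on both arrays. The median log2 ratio (senecionine minus control, each array scaled to its 75th percentile of signal) was -1.13 for the 31 genes and -0.14 for all measured genes. In all, 26 of the 31 had a ratio below 0, as did 56.3% of all measured genes. At 4-fold, 6 were lower and 1 was higher, against 4.63% and 2.73% of all measured genes. The direction of the whole array depended on its scaling: higher genes made up 38.8% of all genes past 2-fold in the main setting, 48.8% after centring on the median gene and 67.3% without scaling. Without scaling, 12 of the 31 were lower and 4 higher, beside 10.1% and 20.8% of all measured genes. With the median centring 15 were lower and 3 higher, beside 14.6% and 13.9%.

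**Figure D1:**
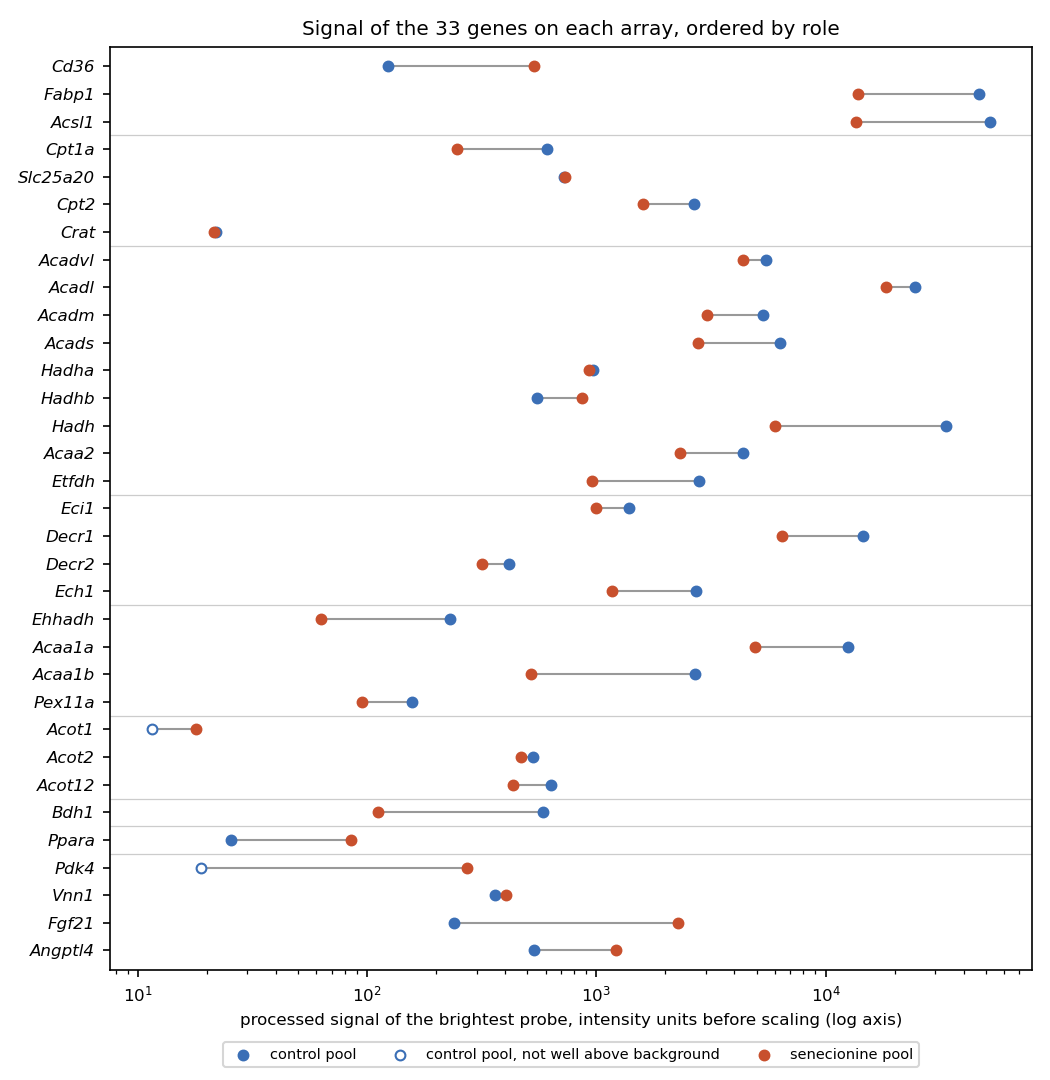
Processed signal of the brightest usable probe of each of the 33 genes on each array, in intensity units before scaling on a log axis, ordered by role and separated by grey lines. Signals of different probes are not comparable with each other. Hadh, Acsl1, Fabp1 and Bdh1 show wide gaps to the left after senecionine, and Pdk4, Fgf21, Cd36 and Ppara wide gaps to the right.

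Signal level and direction went together on these arrays. Of the 31 genes, 15 were among the 1561 brightest measured genes, and 12 of these 15 were lower by 2-fold or more and none higher. Of the 1561 genes as a whole, 23.8% were lower and 7.3% higher. Of the 16 dimmer members, 4 were lower and 3 higher, against 16.1% and 12.2% of the 6242 dimmer genes. All 3 higher members were thus in the dimmer class. In tissue RNA, fewer cells of a type and less RNA per cell cannot be told apart.

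**Figure D2:**
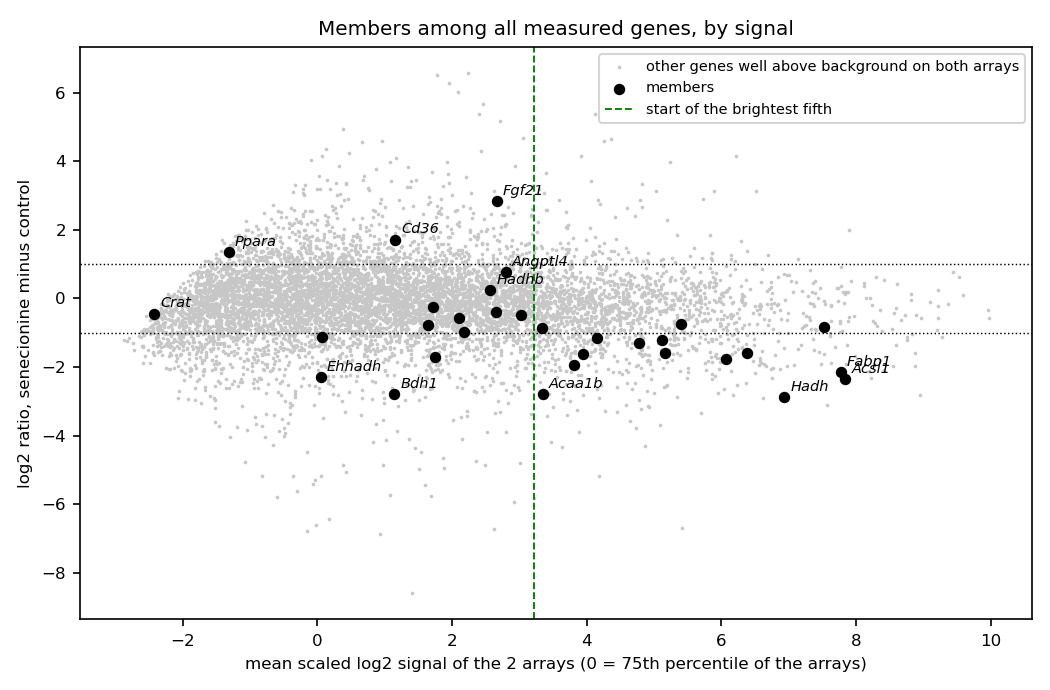
Log2 ratio (senecionine minus control) against the mean scaled log2 signal of both arrays for every gene well above background on both, with the 31 measured members in black, dotted lines at 2-fold and a dashed line where the 1561 brightest genes begin. The 15 members to the right of the dashed line all have ratios below 0, and Fgf21, Cd36 and Ppara lie to its left above the upper dotted line.

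The liver label was borne out by hepatocyte markers: 7 of the 10 listed had a usable probe, and all 7 were well above background on both arrays. Their summed scaled signal was 2678 times the 75th percentile in the control and 1711 times after senecionine, and 5 of the 7 were lower by 2-fold or more. Albumin (Alb) had a log2 ratio of -1.14 and the transcription factor Hnf4a one of -1.37. Serpina1 lay within 2-fold at -0.57, and Apob went the other way at 0.54. With 6 of 7 ratios below 0, most hepatocyte markers moved the same way as most members. The part of these markers in the members' values was not tested. Of 10 brain markers, 5 were well above background in the control and 6 after senecionine, with summed scaled signals of 16.3 and 1.21. Syt1 and Gfap were so only after senecionine and Snap25 only in the control. After senecionine Syt1 and Gfap read 12.9 and 13.4 units, below the lowest control signal called well above background (20.6), so the 2 counts are not alike. The 4 brain markers measured on both arrays were all lower by 4-fold or more. Mbp, the brightest of the list in the control, read 1054 and 16.2 units and was 86.1-fold lower. Slc17a7, Gad1 and Map2 of that list were not well above background on either array. Macrophage markers summed to 146 in the control and 254 after senecionine, with 7 of 8 well above background on both. Different genes were brightest on the 2 arrays: Clec4f read 9156 and 1352 units and Lgals3 1955 and 19507. Of the 7 macrophage ratios 4 were below 0, and their median was -0.04. Endothelial markers summed to 49.6 and 6.998, with 1 and 2 of 4 well above background. Kdr, at 4974 and 888 units (log2 ratio -2.89), made up most of both sums. Cdh5 read 15.3 and 27.5 units, the first not well above background, and Pecam1 and Tek were so on neither array. Muscle markers summed to 1.74 and 0.892, with 3 of 7 well above background on each array.

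PPAR alpha binds as a heterodimer to paired copies of a short nuclear receptor motif spaced by 1 base, and promoter sequences were available for 28 of the 33 genes (RefSeq, assembly GRCr8, 300-base windows). Acaa2, Acadl, Decr1, Ech1 and Vnn1 had no entry. The motif AGGTCANAGGTCA was searched on both strands, no other motif was searched, and N was left free. No member window held it without a mismatch, while 0.0538% of 33469 RefSeq promoter windows did. With 1 mismatch allowed it was found in 3 of 28 member windows and in 0.439% of all windows, and with 2 mismatches in 5 (17.9%) and 3.77%. With 3 mismatches the shares were 10 of 28 (35.7%) and 24.9%. Among these 10, Hadha and Hadhb have the same 13 bases as their match, read on opposite strands where their windows overlap. These matches are descriptions of letters within short windows and not sites. The 250 bases before the gene start are printed for the 3 genes with 1 mismatch, because their probes gave different ratios, and for Hadha, whose window overlaps that of its partner Hadhb by 200 bases on the opposite strand. Capitals mark the 13-base match, or for Hadha the bases shared with the Hadhb window. The stretches are chr4:104749090-104749339 (plus strand) for Fabp1, chr2:24721709-24721958 (plus strand) for Acot12, chr10:55236706-55236955 (minus strand) for Acadvl and chr6:31907551-31907800 (plus strand) for Hadha, all in GRCr8 and written 5′ to 3′.
Fabp1: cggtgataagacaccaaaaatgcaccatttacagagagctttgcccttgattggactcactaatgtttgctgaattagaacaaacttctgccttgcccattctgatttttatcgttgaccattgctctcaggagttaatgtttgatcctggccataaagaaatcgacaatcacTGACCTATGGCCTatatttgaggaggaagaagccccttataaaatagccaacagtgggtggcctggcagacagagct
Acot12: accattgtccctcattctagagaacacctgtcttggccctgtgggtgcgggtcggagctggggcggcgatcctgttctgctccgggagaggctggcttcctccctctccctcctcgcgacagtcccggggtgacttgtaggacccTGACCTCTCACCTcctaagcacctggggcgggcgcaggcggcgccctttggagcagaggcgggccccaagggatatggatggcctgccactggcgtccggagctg
Acadvl: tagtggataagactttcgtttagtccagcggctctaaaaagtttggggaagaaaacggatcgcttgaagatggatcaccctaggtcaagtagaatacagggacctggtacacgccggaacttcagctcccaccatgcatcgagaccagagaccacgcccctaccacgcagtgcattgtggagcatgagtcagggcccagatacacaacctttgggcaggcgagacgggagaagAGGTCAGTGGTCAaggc
Hadha: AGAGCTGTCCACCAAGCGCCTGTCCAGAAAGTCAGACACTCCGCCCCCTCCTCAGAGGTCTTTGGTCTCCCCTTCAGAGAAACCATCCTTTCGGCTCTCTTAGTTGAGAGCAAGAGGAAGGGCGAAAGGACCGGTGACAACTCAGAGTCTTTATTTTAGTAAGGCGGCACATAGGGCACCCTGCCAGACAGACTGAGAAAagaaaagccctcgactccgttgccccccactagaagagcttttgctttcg
The match began 77 bases before the gene start in Fabp1, 105 in Acot12 and 17 in Acadvl. It lay on the opposite strand in Fabp1 and Acot12 and on the gene's strand in Acadvl. Fabp1 was 4.45-fold lower after senecionine, Acot12 1.95-fold lower and Acadvl 1.66-fold lower, so the 3 genes with the closest match covered a range of ratios from -2.16 to -0.73 on the log2 scale. The other windows with a match at 2 mismatches were those of Crat and Slc25a20, whose ratios of -0.45 and -0.40 lay within 2-fold. The remaining member windows had 3 to 5 mismatches at their closest place.

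Fatty acid uptake and activation parted in direction. Acsl1, the long-chain acyl-CoA synthetase that commits fatty acids to metabolism, read 52248 intensity units in the control and 13634 after senecionine. It was 5.08-fold lower (log2 ratio -2.35 ± 0.20, the error being that of the spots as the scanner software gives it), and its other 3 probes gave -2.80, -2.86 and -3.24, so all 4 probes were lower. Fabp1, the abundant fatty acid binding protein of hepatocytes, read 46530.1 and 13854.0 units, a log2 ratio of -2.16 ± 0.20. Its second probe carried an outlier flag on the control array and was left out, and with such spots kept the gene's ratio was -1.69. Cd36, a membrane receptor for fatty acids that macrophages and endothelium also carry, went the other way. It was spotted 10 times on each array, and its spots read from 111 to 141 units with a median of 123 in the control and from 488 to 568 with a median of 544 after senecionine. No spot of one array overlapped the other, and the gene was 3.27-fold higher (1.71 ± 0.21). Spots of 1 array share their RNA pool and measure technical spread only. Beside Cd36, 3 of 7 measured macrophage markers passed 2-fold upward and 2 downward: Gpnmb, Lgals3 and Cd68 had log2 ratios of 3.66, 2.91 and 1.06, and the Kupffer cell lectin Clec4f and Adgre1 had -3.17 and -1.28. Their part in the Cd36 value was not tested.

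Of the 4 carnitine shuttle genes, the long-chain transferases Cpt1a and Cpt2 were lower by 2-fold or more and the other 2 lay within 2-fold. Of all measured genes, 17.7% were lower by 2-fold or more. Cpt1a, the outer membrane transferase that limits entry of long chains, was spotted 10 times, and 1 spot on the control array was left out for its outlier flag. The 9 kept control spots read from 570 to 651 units with a median of 615, and the 10 senecionine spots from 213 to 272 with a median of 245. All control spots, the flagged one at 465 included, lay above all senecionine spots, and the gene was 3.27-fold lower (-1.71 ± 0.20). Cpt2, which returns the acyl group to CoA on the matrix side, read 2668 and 1592 units and was 2.22-fold lower (-1.15 ± 0.20), though its ratio was -0.74 without scaling. The carnitine-acylcarnitine carrier Slc25a20 lies between the transferases and read 724 and 729.8 units, a log2 ratio of -0.40 ± 0.20 that was 0.01 without scaling. The Cpt1a and Slc25a20 ratios differed by 1.31 ± 0.29 on the log2 scale. Crat, the carnitine transferase for acetyl groups, read 21.9 and 21.4 units, near the lowest control signal called well above background (20.6), and its ratio of -0.45 ± 0.37 was barely larger than its spot error.

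**Figure D3:**
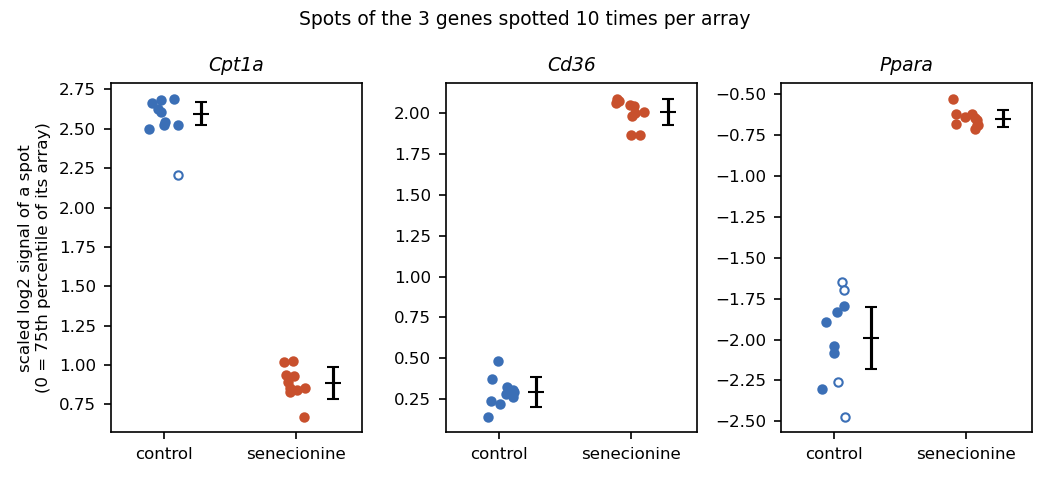
Scaled log2 signal of each of the 10 spots of Cpt1a, Cd36 and Ppara on each array, where 0 is the array's 75th percentile, with the mean and SD of the kept spots beside them and open circles for spots left out for an outlier flag. The spots of the control and the senecionine array do not overlap for any of the 3 genes, and the control spots of Ppara scatter most (SD 0.19).

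Within the mitochondrial cycle, 5 of 9 genes passed 2-fold downward and none upward, beside 17.7% and 11.2% of all measured genes. The 4 acyl-CoA dehydrogenases catalyse the first step on chains of falling length. Acadvl, which takes very long chains, read 5482 and 4373 units (log2 ratio -0.73 ± 0.20, other probe -0.37), and Acadl, for long chains, 24620 and 18451 units (-0.82 ± 0.20). Acadm, for medium chains, read 5343 and 3049 units (-1.22 ± 0.20) and Acads, for short chains, 6308 and 2775 units (-1.59 ± 0.20). Listed from very long to short chains, these 4 ratios went from higher to lower, an order noticed after the values were seen. Along this order each ratio minus the one before it was -0.09, -0.39 and -0.38, against a spot error of 0.29 for each difference, and Acads minus Acadvl was -0.86. The first pair therefore did not differ beyond spot error, and its order turned under quantile normalization (Acadvl -0.49, Acadl -0.30), cyclic loess (-0.47, -0.44) and normexp correction (-0.65, -0.48). Under normexp correction Acadm and Acads also changed places (-1.38, -1.30).

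Later steps of the cycle were measured through 4 genes. Hadha and Hadhb encode the subunits of the membrane-bound trifunctional protein, which carries out the last 3 steps on long chains. Hadha read 970.3 and 925 units, a log2 ratio of -0.48 ± 0.20, and its second probe was not well above background on either array. Hadhb read 549 and 862 units, a ratio of 0.24 ± 0.20. The 2 subunit genes, whose promoter windows share the stretch shown above, were both within 2-fold. Hadh, the matrix dehydrogenase for medium and short chains, read 33424 and 6036 units and was 7.34-fold lower (-2.88 ± 0.20, other probe -2.55), the lowest ratio among the 31 genes in the main setting. Its ratio lay well below those of the trifunctional subunits, and the difference from Hadhb was -3.12 ± 0.29. Acaa2, the matrix thiolase, read 4349.7 and 2327 units and was 2.48-fold lower (-1.31 ± 0.20, other probe -1.02). Etfdh, which passes electrons from the dehydrogenases to ubiquinone, read 2791 and 961 units and was 3.85-fold lower.

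Auxiliary enzymes open the cycle to unsaturated fatty acids by moving or reducing double bonds. Decr1, the mitochondrial dienoyl-CoA reductase, read 14630 and 6466 units and had a log2 ratio of -1.59 ± 0.20. Ech1, a dienoyl-CoA isomerase, read 2716 and 1174 units and was 3.07-fold lower (-1.62 ± 0.20). The enoyl-CoA isomerase Eci1 read 1381 and 998 units (-0.88 ± 0.20). Decr2, the peroxisomal counterpart of Decr1, read 414 and 318 units (-0.79 ± 0.20), and both lay within 2-fold, though Eci1 was just past it with median scaling (-1.002). The Decr1 ratio minus the Decr2 ratio was -0.80 ± 0.29.

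The 4 members listed under peroxisomal oxidation and division were each lower by 2-fold or more, while the peroxisomal reductase Decr2 above was within 2-fold. Of all measured genes, 17.7% were lower by 2-fold or more. Acaa1b and Acaa1a, near-identical copies of the peroxisomal thiolase whose probes may hybridise to each other's transcripts, read 2694 and 518 units and 12496 and 4917 units. Acaa1b was 6.90-fold lower (-2.79 ± 0.20) and Acaa1a 3.37-fold lower (-1.75 ± 0.20, other probe -1.91). Ehhadh, the bifunctional enzyme of the classical PPAR alpha response, read 230.3 and 62.7 units and was 4.87-fold lower (-2.28 ± 0.23), with a ratio of -1.19 under normexp background correction. Pex11a, a membrane protein that drives peroxisome division, read 157 and 95.2 units and was 2.19-fold lower (-1.13 ± 0.21), and its ratio was -0.72 without scaling.

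Acyl-CoA thioesterases release free fatty acids from CoA, and the 2 of 3 in the set that were measured on both arrays lay within 2-fold. Acot2, the mitochondrial form, read 528 and 471 units, a log2 ratio of -0.57 ± 0.20. Acot12, which hydrolyses acetyl-CoA in the cytosol, read 635 and 431 units and had a ratio of -0.97 ± 0.20, just inside the threshold and past it with median scaling (-1.09). Acot1, the cytosolic sister of Acot2 with a closely related sequence, read 11.5 units in the control, not well above background there, and 17.9 after senecionine, which is below the lowest signal called well above background on the control array, so no fold is given.

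Ketone body metabolism was represented in the set by Bdh1, the enzyme that interconverts acetoacetate and 3-hydroxybutyrate, which read 586 and 111 units and was 6.97-fold lower (-2.80 ± 0.21). Its ratio was -1.82 under normexp background correction. Of 8 measured genes on the ketone body list outside the set, 6 passed 2-fold downward and none upward. Of all measured genes, 17.7% were lower and 11.2% higher by that much. Acat2 and Aacs of this list had log2 ratios of 0.17 and -0.70. Oxct1, which activates ketone bodies for use, read 12.6 units in the control, not well above background there, and 45.6 after senecionine, at least 1.67-fold higher.

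The receptor and several other known targets had higher values, unlike most of the oxidation enzymes. Ppara was spotted 10 times, near the detection limit on the control array. There 4 spots were left out for an outlier flag, and the 6 kept spots, 5 of them well above background, read from 20.4 to 29.1 units with a median of 25.9. On the senecionine array all 10 spots were well above background and read from 81.4 to 92.6 units with a median of 85.0. No senecionine spot overlapped a control spot, flagged spots included, and the gene was 2.53-fold higher (1.34 ± 0.33). Under normexp background correction the ratio was 0.43, within 2-fold. It was not compared when every kept spot had to be well above background.

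Fgf21, a fasting hormone secreted by the liver, read 239 and 2260 units and was 7.12-fold higher (2.83 ± 0.21), the highest ratio among the 31 genes in the main setting. Pdk4, the kinase that shuts pyruvate out of the citric acid cycle, read 18.7 units in the control, not well above background there, and 274 after senecionine. It was at least 10.03-fold higher, the bound being the senecionine signal against the higher of the control probe's own signal and the lowest control signal well above background, both scaled. Angptl4, a secreted inhibitor of lipoprotein lipase, read 536 and 1217 units, a ratio of 0.78 ± 0.20 that passed 2-fold only without scaling (1.18). Vnn1, a pantetheinase, read 359 and 402 units, a ratio of -0.25 ± 0.21 that was 0.16 without scaling.

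**Figure D4:**
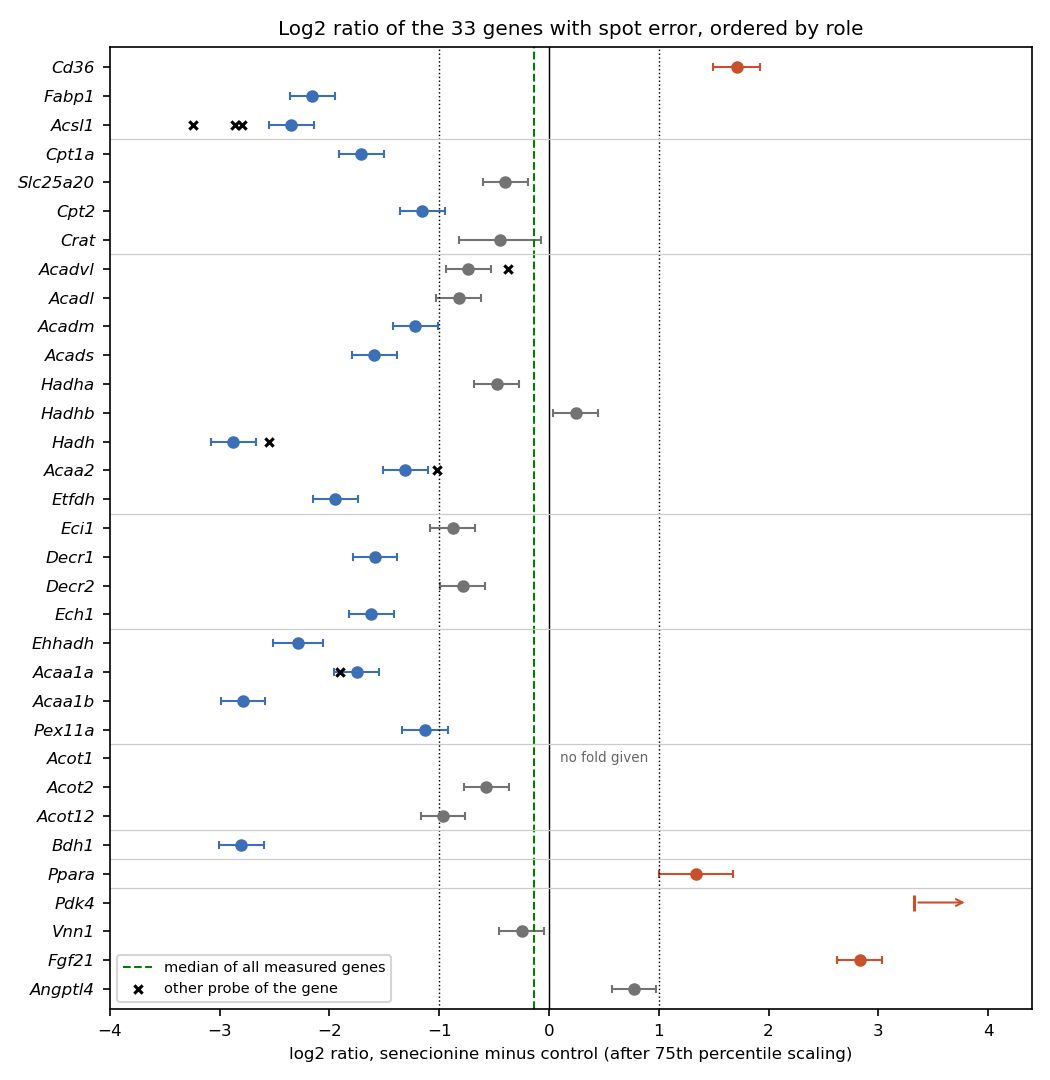
Log2 ratio (senecionine minus control) of the brightest usable probe of each gene with its spot error, other usable probes as crosses, dotted lines at 2-fold and the median of all measured genes dashed. The arrow for Pdk4 starts at its lower bound, Acot1 has no fold, and 16 genes lie left of the lower dotted line and 3 right of the upper one.

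The authors' deposited table, a list selected at 2-fold, held 17 of the 33 genes, 13 as lower and 4 as higher. Of the 3516 named genes in it, 42.2% were lower and 57.8% higher. The authors' deposited table gave Fgf21, Cd36, Ppara and Pdk4 log2 differences of 3.03, 1.77, 1.34 and 3.53. For the lower genes the values in the authors' deposited table ran from -2.77 for Bdh1 to -1.15 for Pex11a, taking the brightest probe of each gene. Cpt2, Acadm and Acaa2, at least 2-fold lower here, were not in the authors' deposited table.

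Genes of the same pathways outside the set were counted from 7 lists, also chosen with earlier results of these data known. In these lists 114 genes were measured on both arrays. Of these, 59 passed 2-fold downward and 9 upward, beside 17.7% and 11.2% of all measured genes. Their median log2 ratio was -1.01. Of the 27 measured peroxisomal genes 16 were lower and none higher. Catalase (Cat), which breaks down the hydrogen peroxide of peroxisomal oxidation, read 5733 and 511 units and was 14.9-fold lower (-3.89 ± 0.20). Hacl1, the lyase of alpha-oxidation, was 14.8-fold lower (-3.88, other probe -3.28), and Phyh, the phytanoyl-CoA hydroxylase that feeds it, 4.70-fold lower (-2.23, other probe -1.81). Pecr, a peroxisomal reductase, was 4.21-fold lower. Hsd17b4, the multifunctional enzyme for branched chains and very long chains, had a ratio of -0.53 ± 0.20. Rxra and Plin2 had no probe that could be named here.

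Carnitine supply and the electron carriers were lower in part. Of 9 measured genes of the carnitine list 5 passed 2-fold downward and 1, Cpt1b, upward, the last by 1 of its 2 probes. Of all measured genes, 17.7% were lower and 11.2% higher by that much. Bbox1, the last enzyme of carnitine synthesis, was 4.83-fold lower, Tmlhe, the first, 3.198-fold, and Mlycd, which removes the malonyl-CoA that inhibits Cpt1a, 3.01-fold. Cpt1c, the transferase known from neurons, was 3.25-fold lower. All 4 measured brain markers were lower as well, and their part in the Cpt1c value was not tested. Of 11 other mitochondrial oxidation genes 6 were lower and none higher. Hsd17b10 was 3.15-fold lower, Mcee 2.33-fold and Pcca 3.70-fold, the last with a second probe at a log2 ratio of -0.37. Of the electron transfer flavoprotein, which hands electrons to Etfdh, the subunit Etfb had a ratio of -1.18 ± 0.20 and Etfa one of -0.29 ± 0.20.

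Fatty acid uptake and activation outside the set was mixed, with 6 lower and 5 higher of 19. Among all measured genes 17.7% were lower and 11.2% higher by 2-fold or more. The liver transporters Slc27a5 and Slc27a2 were 3.75-fold and 3.21-fold lower and the medium-chain synthetase Acsm2 3.104-fold lower. Fabp4, the binding protein of adipocytes and macrophages, was 9.17-fold higher (3.197 ± 0.31). Of 11 measured partners and coregulators of PPAR alpha 6 were lower and none higher. The clock repressor Nr1d1 was 8.25-fold lower, Creb3l3, a liver transcription factor that acts with PPAR alpha on Fgf21, 4.46-fold, Klf15 3.09-fold and Rxrg 2.81-fold (-1.49, other probe -1.06). The coactivator Ppargc1a was not well above background on either array. The deacetylase Sirt3 and the dehydrogenase Bdh2, both on the ketone body list, were 3.93-fold and 3.05-fold lower.

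Of 29 measured further PPAR alpha targets, 14 were lower and 3 higher by 2-fold or more, beside 17.7% and 11.2% of all measured genes. Lpl, the lipoprotein lipase, was 11.975-fold higher (3.58 ± 0.31, other probe 2.29) and the glycerol channel Aqp7 6.01-fold higher (2.59 ± 0.25). The desaturase Fads2 was 6.08-fold and the thioesterase Acot3 5.42-fold lower. Of the Cyp4a fatty acid hydroxylases, Cyp4a1 and Cyp4a3 had ratios of -0.60 ± 0.20 and -0.77 ± 0.20, and Cyp4a2 and Cyp4a8 were 3.21-fold and 3.09-fold lower. These 4 genes are close relatives whose probes may cross-hybridise.

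**Figure D5:**
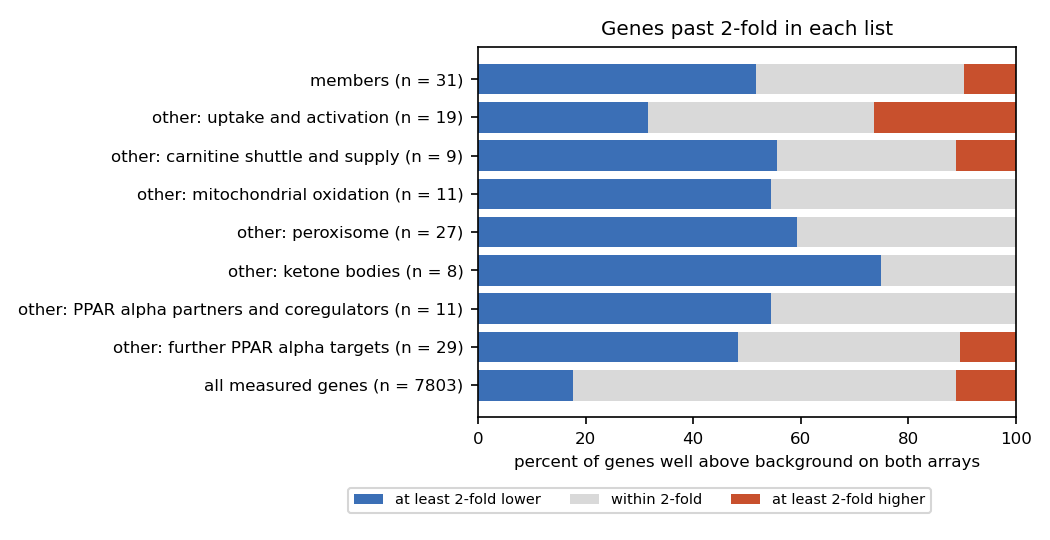
Percent of genes lower by 2-fold or more, within 2-fold and higher by 2-fold or more in the set, in 7 lists of other pathway genes and among all measured genes, over genes well above background on both arrays. Lower genes make up 17.7% of all measured genes and a larger share in each list shown.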

How the data were processed

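RNA of 2 liver pools was measured on Agilent arrays. The submitters' processing notes name Agilent Feature Extraction (10.7.3.1), from which the authors deposited intensity values per spot, background-subtracted and not scaled between arrays per the file headers. The authors' deposited series table holds log2 values for 7404 probes. How they were scaled stays unknown. The smallest absolute difference between its columns is 1.00, the column medians are 6.03 and 6.10, and all 7355 probes compared had the direction found here. The series table comes from the same 2 arrays and holds only probes at least 2-fold apart, so a shared direction was nearly fixed in advance.

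Here the processed signal was put on a log2 scale, and the 75th percentile of 43379 non-control spots (101 units for the control and 134 for senecionine) was subtracted within each array. Of the spots, 44.4% and 64.1% were well above background on the control and the senecionine array. Spots with an outlier flag were left out (522 and 497), spots of 1 probe were averaged, and a probe counted as well above background where at least 50% of its kept spots were. The brightest such probe represented a gene. Symbols came from unversioned RefSeq accessions (table of assembly GRCr8, 17250 of 40516 probes). Coordinates are given for promoter windows only, since the array's annotation uses an older build. The spot error (median 0.20 for the members) is technical and mostly proportional to the signal. Precision is limited by the number of arrays, 1 per group.

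The 33 members and all gene lists were chosen with earlier results of these data known. All 33 are reported. Of each other list, up to 4 measured genes with the widest ratios are named, together with Hsd17b4, Ppargc1a, Rxra, Plin2, Cyp4a1, Etfa and Etfb. Some genes this rule names are not reported here. Markers, further Cyp4a genes and Cpt1b named beside a result were chosen after their values were seen. The counting was tested on simulated data. Alternatives were other scalings, normexp background correction (offset 50, on median spot signals), filters, probe rules, a common signal floor, thresholds of 1.5-fold, 3-fold and 4-fold, and the authors' values. A stricter rule for repeated spots, median centring and the split by brightness were added after the data were seen. Other scalings ran in R 4.3.3 (limma 3.58.1) and all else in Python 3.11.15 with pandas 2.3.3 and numpy 2.4.6.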

Additional observations from a re-analysis of the deposited data

How the results depend on the processing

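Of the 16 members at least 2-fold lower, 12 stayed past 2-fold in each alternative that gave them a value, and Cpt2, Acadm, Acaa2 and Pex11a did not. Some alternatives could not have lowered this count. The filters and the common floor left the ratios of these 16 unchanged, and the authors' deposited table lists only genes past 2-fold. Probe rules could change only genes with several probes. Of the 3 higher members, Fgf21 and Cd36 stayed past 2-fold and Ppara did not. No recomputed ratio of a member past 2-fold changed its sign. Among the members within 2-fold, Slc25a20 and Vnn1 changed sign without scaling, to 0.01 and 0.16. The count of lower members ran from 12 to 18 and that of higher members from 2 to 4 at 2-fold, while at 4-fold they were 6 and 1. The median of the members was -0.72 without scaling, -0.87 with normexp correction and -1.41 in the authors' deposited table, which lists only genes past 2-fold and so covers 17 members. Among all genes, 787 were lower and 1620 higher without scaling, where the median ratio was 0.27, and it was -0.26 with median scaling. Normexp correction left 761 lower. Detection on 1 array gave 2389 higher with a median of 0.10, and no filter gave 3000 lower and 2394 higher. The authors' table gave 2032 higher and a median of 1.11. Lower and higher genes numbered 2424 and 1642 at 1.5-fold, 615 and 366 at 3-fold, and 361 and 213 at 4-fold. Where these values moved, the cause was not tested. Signal over background limits Crat, Acot1, Pdk4 and Ppara. No paired analysis was possible because each group has 1 array.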

Other observations

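Genes of lipid or glycerol handling known from adipocytes or macrophages were higher in part, chosen here after their values were seen. Lpl, Fabp4, Aqp7 and Cd36 had log2 ratios of 3.58, 3.197, 2.59 and 1.71 after senecionine. The adipocyte hormones Adipoq, Lep and Retn were not well above background on either array, and the adipocyte genes Cidec and Cfd had ratios of -1.02 and -2.14. The 6 adipocyte markers with a probe summed to 12.1 times the 75th percentile on the control array and 7.17 times on the senecionine array, with 3 of 6 well above background on each.

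Probes of Cpt1b, the muscle form of the outer membrane carnitine transferase, did not give the same answer. The brighter read 49.9 and 151 units, a ratio of 1.19 ± 0.25, and the dimmer 43.2 and 50.8 units, a ratio of -0.18 ± 0.29. Cpt1a, the liver form, had a ratio of -1.71 ± 0.20, below both.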
